A study of Mus musculus with 3 samples.

Results

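The 39 Hox genes of the mouse were described in cells of the trunk between the neck and the upper thorax. Members were all rows whose symbol is Hoxa, Hoxb, Hoxc or Hoxd followed by a number alone, 39 of 33696 rows. They comprise 11 HoxA, 10 HoxB, 9 HoxC and 9 HoxD genes in 13 paralogue groups. Antisense and other non-coding transcripts of the same loci were left out of the members. Single-cell RNA sequencing was done on the trunk from cervical segment 3 to thoracic segment 2 at 3 embryonic (E) stages in days, E11.5, E12.5 and E13.5. Each stage is 1 library made from 3 pooled littermates, and neither strain nor genotype is given in the sources used here. With 1 library per stage, no difference between stages has a replicate check. Stage, litter, sex of the pool and exact level of the cut cannot be told apart, and every interval given covers counting error only.

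Hox genes encode homeodomain transcription factors that set the identity of segments along the head-to-tail axis. They lie in 4 complexes, HoxA to HoxD, and genes at the same place in different complexes form a paralogue group. Groups with low numbers lie at the end of each complex that is switched on first and are transcribed up to more anterior levels, whereas groups with high numbers start later and further back. In the spinal cord the combination of groups assigns motor neurons to columns and pools, and in the somites it sets the shape of vertebrae.

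The libraries held 94155624 to 113402193 unique molecular identifiers (UMIs), and 6039, 6003 and 6934 cells with 4000 or more UMIs were kept in order of stage (E11.5 first). Cells were clustered without the Hox genes, so that Hox levels did not define a cell cluster, and named from markers. The spinal cord-like class held 2385, 1856 and 521 cells in order of stage, the mesenchyme-like class 2486, 3097 and 4725, and the muscle-like class 327, 477 and 642. Because the names were given from markers, the levels of those markers are a description and not a check. Sox2 and Elavl3, of neural progenitors and neurons, had 340 and 271 CPM (a class's UMIs of a gene scaled to a common total) in the spinal cord class at E11.5 and 2.73 and 1.33 CPM in mesenchyme. The sexes were mixed unevenly: at E11.5, 65.2% of cells held Xist and 29.8% a transcript of the Y chromosome, at E12.5 26.8% and 60.5%, and at E13.5 95.3% and 2.49%. Totals in Xist-positive cells free of Y transcripts stand with the processing alternatives. Between 10 and 16 cell barcodes were shared by each pair of libraries.

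Hox UMIs were also found in blood cells. The erythroid-like class had 129, 74.0 and 78.1 CPM over all Hox genes, and the macrophage-like class 165, 45.3 and 39.1 CPM, in order of stage. The droplets of 50 to 500 UMIs, which hold free RNA, had 1683, 1611 and 844 CPM. Spinal neuron markers in the blood classes put free RNA at 3.02, 1.48 and 3.06% of a cell's UMIs, and haemoglobin in cells outside the erythroid class would put it at 5.45, 9.96 and 22.4%. At the lower shares free RNA would give a cell 50.9, 23.8 and 25.8 CPM of Hox transcripts, and at the haemoglobin shares 91.7, 161 and 189 CPM. Both blood classes lay above the lower estimate at each stage and above both at E11.5, and the 6 mast and other blood cells of E11.5 had 435 CPM, led by Hoxa9 with 30.8%. Whether blood cells held Hox RNA of their own was not tested. The erythroid level is given below as a comparison, and free RNA levels of single genes use the lower shares.

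Across all cells, 35 of the 39 members had at least 10 UMIs in at least 1 class and stage. The other 4, Hoxa13, Hoxb13, Hoxc11 and Hoxc12, did not. Counts are of 3′ ends and are not scaled to gene length, so levels of different genes are compared as tagged ends only. In the GENCODE M21 annotation 11 members overlap another member on the same strand, in the stretches Hoxa3 to Hoxa6, Hoxc5 to Hoxc10 and Hoxd3 to Hoxd4, and 14 overlap a transcript of the opposite strand. Reads in those stretches could be split between neighbours, and since the counting is not stated to use strand, these members' values are the less certain ones. Of the 35 members, 22 had their highest level in the spinal cord class, 6 in mesenchyme (Hoxc5, Hoxc10 and Hoxd10 to Hoxd13), 3 in muscle (Hoxa10, Hoxa11 and Hoxd1), 2 in epidermis (Hoxc13 among them) and 2 in endothelium (Hoxd8 and Hoxd9).

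**Figure D1:**
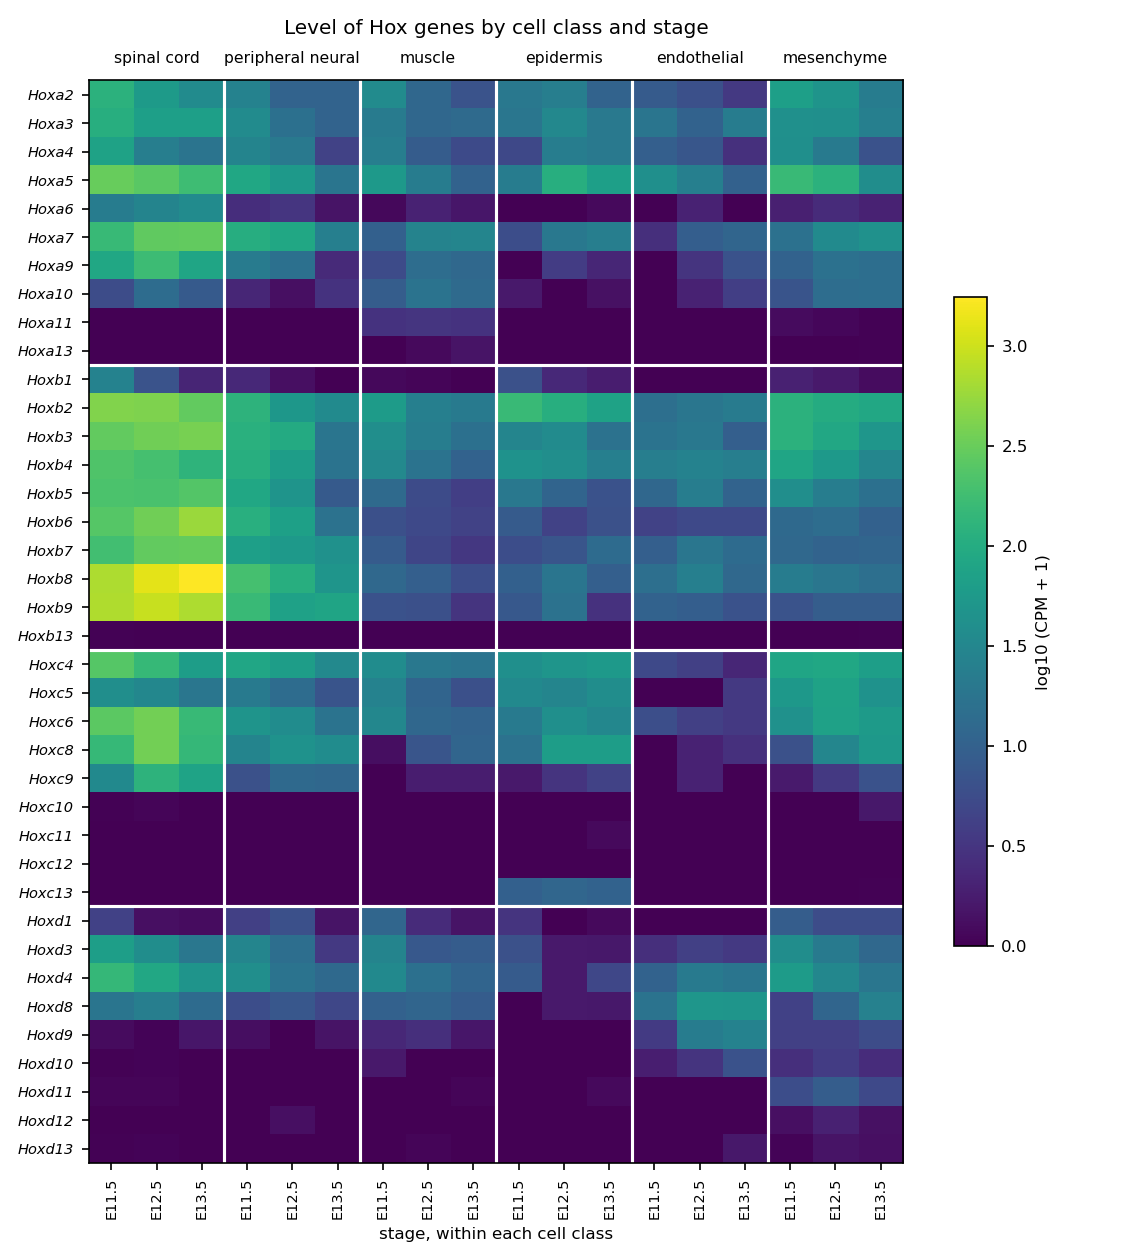
Level of Hox genes (rows, by complex and paralogue group) in 6 cell classes at 3 stages (columns), as log10 of CPM + 1, with 1 library per stage. The spinal cord columns are the brightest, with Hoxb8 at 1769 CPM at E13.5, and single genes stand out elsewhere, such as Hoxc13 in epidermis and Hoxd8 and Hoxd9 in endothelium.

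Hox transcripts were most abundant in the spinal cord class. All members together made 4907, 6138 and 5633 CPM there in order of stage, against 1055, 950 and 685 CPM in mesenchyme. The log2 ratio of spinal cord to mesenchyme was 2.22 (95% interval 2.20 to 2.23) at E11.5, 2.69 (2.68 to 2.71) at E12.5 and 3.04 (3.01 to 3.07) at E13.5. A spinal cord cell thinned to 4000 UMIs had UMIs of 9.68, 9.70 and 8.43 different Hox genes on average, and a mesenchymal cell 3.10, 2.77 and 2.22. Median depths were 9927, 7885 and 6107 UMIs per spinal cord cell and 12801.5, 11625 and 9728 UMIs per mesenchymal cell. Both classes of a stage come from 1 library.

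Most of the gap lay in groups 6 to 13. Summed over these groups, the log2 ratio of spinal cord to mesenchyme was 4.15, 4.12 and 3.96 in order of stage, and over groups 1 to 5 it was 1.35, 1.43 and 1.82. At E11.5, 21 of the 31 members with at least 10 UMIs in both classes together were at least 2-fold higher in the spinal cord and 5 were at least 2-fold lower, beside 16.3% and 16.4% of all genes. At E12.5 the numbers were 19 and 7 of 32, beside 19.2% and 23.7%. At E13.5 they were 20 and 9 of 33, beside 20.9% and 25.3%. Hoxb9 differed most at E11.5, with 724 CPM in the spinal cord and 5.72 CPM in mesenchyme, and Hoxb8 most at E13.5, with 1769 CPM against 14.6 CPM. Free RNA would give 5.13 CPM of Hoxb9 at E11.5 and 5.22 CPM of Hoxb8 at E13.5. The mesenchymal Hoxb9 level at E11.5 is thus near background. The members lower in the spinal cord were mostly from the HoxD complex. Hoxd11, a limb gene, had 0.121 CPM in the spinal cord and 8.05 CPM in mesenchyme at E12.5, and Hoxd1 had 0.363 CPM against 4.66 CPM. Hoxc5 was lower too, with 30.9 CPM in the spinal cord and 72.4 CPM in mesenchyme at E12.5.

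Hoxb8 and its neighbour Hoxb9 led the spinal cord class. Hoxb8, which in the mouse is needed for dorsal spinal circuits of sensation and itch, had 698, 1299 and 1769 CPM in order of stage, and Hoxb9 had 724, 949.8 and 704 CPM. Over the class Hoxb8 thus stood higher at each later stage, whereas Hoxb9 was highest in the middle one. The share of progenitors in the class differed with stage, as given below, and its part in these levels was not tested. The HoxB complex as a whole made 62.0, 66.1 and 77.9% of spinal cord Hox UMIs, against 39.2, 32.8 and 32.8% of those of mesenchyme. HoxD genes made 4.74, 2.44 and 1.40% in the spinal cord and 11.4, 8.70 and 10.3% in mesenchyme.

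The Hoxb8 messenger carries a site for a microRNA that is itself encoded in the Hox complexes. Mature miR-196a is transcribed beside Hoxb9 and beside Hoxc10 in the mouse and miR-196b beside Hoxa9. The mature sequences, from RefSeq on GRCm38.p6, are printed with the seed (bases 2 to 8) in capitals, and miR-10a and miR-10b, which lie beside Hoxb4 and Hoxd4, share another seed. Mature miR-196a comes from chr11:96265187-96265208 and chr15:102973365-102973386 (both plus strand), miR-196b from chr6:52230129-52230150 (minus), miR-10a from chr11:96317186-96317208 (plus) and miR-10b from chr2:74726074-74726096 (plus).
miR-196a-5p: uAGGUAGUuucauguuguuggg
miR-196b-5p: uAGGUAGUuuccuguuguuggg
miR-10a-5p: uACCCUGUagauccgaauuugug
miR-10b-5p: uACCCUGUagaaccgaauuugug
Sites for them come from 3′ UTRs of GENCODE M21 transcripts, written as DNA, with the bases that face the seed in capitals.
Hoxb8 site for miR-196a: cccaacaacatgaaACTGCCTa
Hoxc8 site for miR-196a: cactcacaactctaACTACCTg
Hoxa7 site for miR-196a: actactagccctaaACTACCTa
They are shown because these 3 genes carry the results on the spinal cord and on stage. The Hoxb8 site, at bases 418 to 439 of its 3′ UTR, pairs with 21 of the 22 bases of miR-196a in an ungapped alignment, and the remaining pair is a G:U wobble. No other 3′ UTR of 20813 genes reached 21 paired bases, and the closest window had 13 in the median gene. The exact seed match ACTACCT occurred in 9 of 39 Hox 3′ UTRs (23.1%) and in 6.15% of all, where median lengths were 966 and 976 bases. Hoxa7 holds 4 such matches and Hoxc8 holds 2. For the miR-10 seed match ACAGGGT the shares were 10.3% of members and 12.6% of all. MicroRNA levels were not measured, and a match is a description of the sequence.

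Promoters of Hoxb8, Hoxa7 and Hoxa5 are shown because their levels differ widely between classes or stages. Each is 300 bases, from 250 before the start to 50 after it, from RefSeq on GRCm38.p6. Capitals mark the letters searched for on both strands, TGATNNAT (HOX-PBX), TTTATG (CDX), AGGTCA (core of retinoic acid response elements) and TATAAA (the core promoter element of that name).
Hoxb8, chr11:96281655-96281954, plus strand: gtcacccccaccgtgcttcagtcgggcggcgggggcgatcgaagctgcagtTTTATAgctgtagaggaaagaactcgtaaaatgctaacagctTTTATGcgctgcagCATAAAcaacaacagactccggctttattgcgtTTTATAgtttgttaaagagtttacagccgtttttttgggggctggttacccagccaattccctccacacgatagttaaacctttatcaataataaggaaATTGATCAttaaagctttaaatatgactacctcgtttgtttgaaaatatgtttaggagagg
Hoxa7, chr6:52218524-52218823, minus strand: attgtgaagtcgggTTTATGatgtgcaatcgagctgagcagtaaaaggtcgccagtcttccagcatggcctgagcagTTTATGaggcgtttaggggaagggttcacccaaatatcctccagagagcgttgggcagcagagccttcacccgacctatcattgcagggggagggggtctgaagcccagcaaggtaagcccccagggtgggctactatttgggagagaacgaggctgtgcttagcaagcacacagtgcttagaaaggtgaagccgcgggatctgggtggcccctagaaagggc
Hoxa5, chr6:52204538-52204837, minus strand: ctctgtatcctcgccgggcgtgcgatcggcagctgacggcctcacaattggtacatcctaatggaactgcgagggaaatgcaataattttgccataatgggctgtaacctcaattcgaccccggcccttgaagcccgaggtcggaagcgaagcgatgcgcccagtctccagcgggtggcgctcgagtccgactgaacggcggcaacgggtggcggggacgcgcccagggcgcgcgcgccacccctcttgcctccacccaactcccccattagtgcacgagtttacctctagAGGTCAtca
The table of promoters matched 22 members with 24 promoters. TGATNNAT was in 16.7% of these and in 8.85% of all 32851 promoters, TTTATG in 20.8% and 11.9%, AGGTCA in 29.2% and 16.3% and TATAAA in 16.7% and 13.6%. The Hoxb8 promoter held 3 of the 4 patterns, AGGTCA being the one not found in its window, and the Hoxa5 promoter held AGGTCA alone. Hox promoters had a median of 14.5 CG dinucleotides, against 7 in all promoters. No protein or DNA binding was measured here, so these letters are context only.

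Within the spinal cord class, neurons held more Hox transcripts than progenitors. All members together made 6898, 7246 and 6296 CPM in spinal neuron-like cells and 3719, 3216 and 2222 CPM in neural progenitor-like cells in order of stage. Hoxb8 at E13.5 had 2032 CPM in neurons and 417 CPM in progenitors, and Hoxb9 had 816 CPM against 125 CPM. The share of progenitors in the class differed, with 1368 of 2385 cells at E11.5, 474 of 1856 at E12.5 and 73 of 521 at E13.5. The log2 ratio of the class total between E12.5 and E11.5 moved with this mix. It was 0.32 (0.31 to 0.33) over the class, 0.07 within neurons and -0.21 within progenitors.

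Neuronal cell clusters differed in which members they carried. The E11.5 cluster led by Barhl2 and Lhx2, factors of the most dorsal commissural neurons, had the highest total of that stage, 8203 CPM (8082 to 8325) in 222 cells. Its Hoxa9 level was 459 CPM, against 82.6 CPM in the cluster led by Lhx1 and Lhx5, and Hoxb9 was its leading member with 1242 CPM. At E12.5 the clusters led by Npy and Neurod6 and by Gm2694 and Drgx had totals of 8456 and 8321 CPM. Hoxb8 alone made 2355 and 1963 CPM in them. Npy is a peptide and Drgx a factor of dorsal horn neurons. The E12.5 cluster led by Syt4 and Esrrg had 5135 CPM and another order, with Hoxc8 first at 827 CPM and Hoxb8 second at 615 CPM. Its HoxC share was 36.6%, against 11.4% and 9.90% in the dorsal clusters of the same library.

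Motor neuron-like cells at E11.5, 95 cells taken from the finer clustering, made 2995 CPM of Hox transcripts, less than other spinal neurons. Hoxc8, which in the mouse directs brachial motor neurons to their forelimb targets, had 767 CPM (728 to 808) there, and Hoxb8 had 168 CPM (150 to 187). In the spinal neuron-like cells of that library the order was the opposite, with Hoxb8 at 977 CPM and Hoxc8 at 271 CPM. No cells with that name reached 50 at E12.5 or E13.5. In the coarser clustering these cells lay in a cluster of 292 barcodes, of which 161 were called doublets, and that cluster was left out of the spinal cord class. The motor neuron-like cells are those of them not called doublets, and the part of doublets in their values was not tested.

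The neural crest derivatives, here sensory and sympathetic neuron-like and Schwann-like cells, lay below the spinal cord. Their class had 1535, 977 and 450 CPM, with log2 ratios to the spinal cord of -1.68, -2.65 and -3.65. At E11.5, 24 of 27 members were at least 2-fold lower than in the spinal cord and 0 higher, beside 13.2% and 11.1% of all genes. At E12.5 the numbers were 25 lower and 1 higher of 27, beside 16.4% and 14.6%, and at E13.5 23 lower and 0 higher of 24, beside 19.0% and 19.4%. The HoxB complex led here too, with 63.0% of Hox UMIs at E11.5, and Hoxb8 (197 CPM) and Hoxb9 (158 CPM) were the leading members. Sensory neuron-like cells, 87 at E11.5, had 2148 CPM. In the Schwann- and neural crest-like cells the total was 1280, 747 and 389 CPM in order of stage. Over the class, 21 of 26 members were at least 2-fold lower at E13.5 than at E11.5 and 1, Hoxc9, was at least 2-fold higher, beside 8.85% lower and 12.4% higher among all genes. At E12.5 against E11.5, 1 of 26 was higher and 8 were lower, beside 8.64% and 3.65%, and at E13.5 against E12.5 0 of 23 were higher and 13 lower, beside 7.82% and 9.13%. The makeup of the class moved with stage, since sensory neuron-like cells were 87 of its 265 cells at E11.5 and Schwann- and neural crest-like cells were 146 of its 181 at E13.5.

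**Figure D2:**
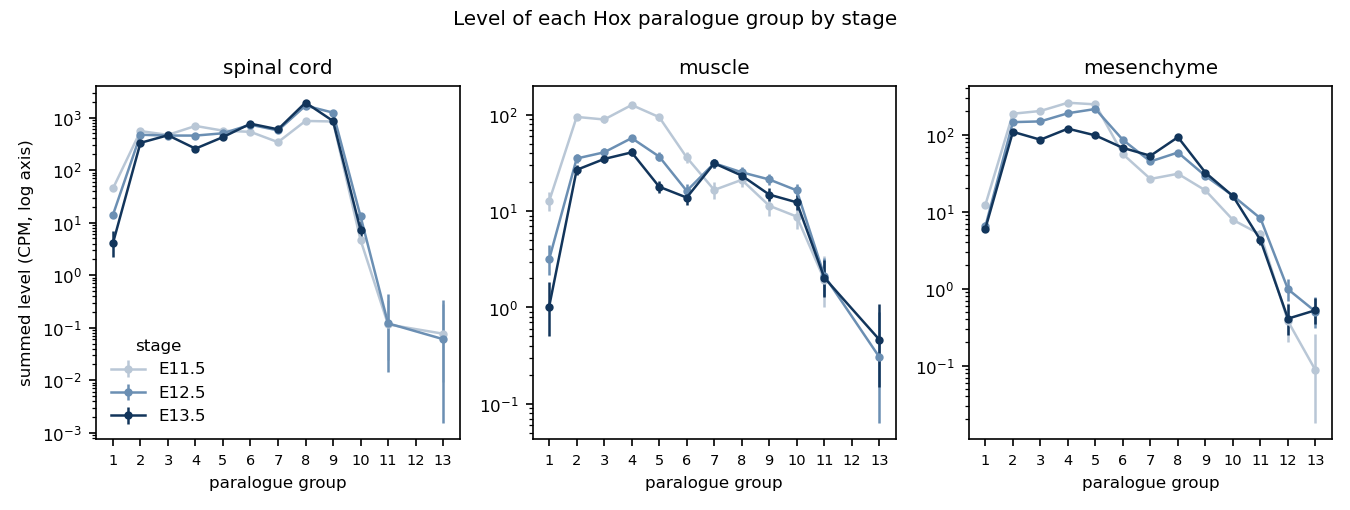
Summed level of each paralogue group (CPM, log axis) in the spinal cord, muscle and mesenchyme classes, 1 line per stage, with exact Poisson intervals as bars and groups at 0 left out. In muscle and mesenchyme groups 1 to 5 stand lower at E13.5 than at E11.5, and group 8 in mesenchyme stands higher, at 31.1, 58.6 and 92.8 CPM.

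In mesenchyme, the balance of groups differed with stage. The total was 685 CPM at E13.5, against 1055 CPM at E11.5, while groups 6 to 13 made 13.8, 25.7 and 38.9% of Hox UMIs in order of stage. The mean paralogue group per UMI was 4.12, 4.64 and 5.07. The makeup of the class moved with stage too. At E11.5 the sclerotome-like cluster held 963 of its 2486 cells, and unnamed clusters led by Gsc held 854 and 490. At E13.5 the clusters led by Clec3b and by Dpt held 1852 and 751 of 4725 cells. Only 2 mesenchymal clusters held enough cells to compare E12.5 with E11.5. The part of this mix in the stage differences of the class and of single members was not tested. Between E13.5 and E11.5 the log2 ratio was -1.12 (-1.15 to -1.10) over groups 1 to 5 and 0.87 (0.83 to 0.92) over groups 6 to 13. Of 34 members with enough UMIs, 7 were at least 2-fold higher at E13.5 than at E11.5 and 11 were at least 2-fold lower, beside 17.2% and 7.65% of all genes. The share higher, 20.6%, is near that of all genes, and the share lower, 32.4%, is above it. In groups 1 to 5, 10 of 15 members were lower and 0 higher. The 7 higher members were all of groups 7 to 13, where Hoxa11 was the 1 lower member, on 3 UMIs at E13.5 and 8 at E11.5. The median log2 ratio was -0.25 over these members and 0.04 over all genes tested. By adjacent stages, 7 members were higher and 2 lower of 33 at E12.5 against E11.5, beside 15.1% and 3.08% of all genes, and 3 were higher and 5 lower of 33 at E13.5 against E12.5, beside 5.16% and 6.33%. In Xist-positive cells free of Y transcripts, 6 of the 9 calls at E12.5 against E11.5 were lost, and 1 of those, Hoxd12, changed sign. At E13.5 against E12.5, 1 of the 8 calls was lost, again Hoxd12 with a change of sign. That subset holds fewer cells (25.6% of E12.5 mesenchymal cells held Xist), and the parts of sex, embryo and depth were not tested.

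Anterior members made up the lower side in mesenchyme. Hoxa5, which in the mouse patterns the neck and upper thoracic skeleton and the lung, had 156, 120 and 38.0 CPM in order of stage. Its log2 ratio between E13.5 and E11.5 was -2.04, and its neighbour Hoxa4 was lower still, at -2.84, with 40.6, 20.2 and 5.67 CPM. Hoxd4, Hoxd3, Hoxb4, Hoxb3 and Hoxa2 were also past 2-fold. Hoxc4 and Hoxc5 were not, with 79.5, 84.2 and 65.7 CPM and with 52.5, 72.4 and 44.8 CPM. Hoxb2 had 119.9, 98.3 and 86.6 CPM and was the leading mesenchymal member at E13.5.

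The members that were higher came from 3 complexes. Hoxc8, which patterns lower cervical and thoracic segments, had 5.37 (4.62 to 6.20), 30.1 (28.4 to 31.9) and 52.9 (50.9 to 54.9) CPM in order of stage, and a log2 ratio of 3.30 between E13.5 and E11.5. Hoxd8 had 3.31, 10.5 and 25.4 CPM, Hoxc9 0.696, 2.42 and 5.67 CPM, and Hoxa7 15.2, 35.2 and 42.6 CPM. The level of each of these genes was higher at each later stage, with intervals that did not overlap. Free RNA would give 1.94, 1.69 and 1.33 CPM of Hoxc8 and 0.342, 0.457 and 0.381 CPM of Hoxc9, so the E11.5 level of Hoxc9 is near background. Erythroid-like cells had 4.61 (2.64 to 7.49), 0.832 and 7.98 CPM of Hoxc8 in order of stage. The mesenchymal Hoxc8 level at E11.5 is thus near that of erythroid-like cells. At the haemoglobin share, subtraction leaves no Hoxc9 at E12.5, and the direction of its difference between E12.5 and E11.5 turns. Hoxc10 had no UMI at E11.5 or E12.5 and 32 UMIs at E13.5, at least 7.14-fold higher than 3 UMIs would be at E11.5. Of their HoxB counterparts, 2 did not follow: Hoxb8 had 22.4, 18.1 and 14.6 CPM and Hoxb7 had 11.3, 9.69 and 10.6 CPM. Hoxb9 was higher at both later stages than at E11.5, with 5.72, 8.10 and 7.96 CPM in order of stage. Free RNA would give 5.13, 2.14 and 1.99 CPM of Hoxb9. The mesenchymal Hoxb8 and Hoxb7 levels at E13.5 compare with 5.22 and 1.64 CPM that free RNA would give. Droplets held 171 and 53.7 CPM of these genes at E13.5. At the haemoglobin share of 22.4%, free RNA would give more than either mesenchymal level. The part of free RNA in the HoxB levels was not tested.

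In muscle, members of groups 1 to 5 and some of the later groups were lower at E13.5 than at E11.5. The class total was 514, 287 and 220 CPM, and groups 6 to 13 made 18.7, 39.5 and 44.8% of it. Of 26 members with enough UMIs, 3 were at least 2-fold higher at E13.5 than at E11.5 and 18 were at least 2-fold lower, beside 6.44% and 11.8% of all genes. In groups 1 to 5, 13 of 14 were lower and 0 higher. In groups 6 to 13, 5 of 12 were lower (Hoxb7, Hoxb8, Hoxb9, Hoxc6 and Hoxd9) and 3 higher. Hoxb9 had 2.04 CPM at E13.5 and 5.53 CPM at E11.5, where free RNA would give 1.99 and 5.13 CPM. Its muscle levels are thus near background. Hoxd9 rested on 6 UMIs at E13.5 and 8 at E11.5. Hoxc6 was the most abundant of the 5, with 9.93 CPM at E13.5 and 30.7 CPM at E11.5. The higher ones were Hoxa7 with 8.94, 27.7 and 29.1 CPM in order of stage, Hoxa9 with 4.55, 13.6 and 11.4 CPM, and Hoxc8 with 0.325, 6.12 and 10.6 CPM. The Hoxc8 level at E11.5 rests on 2 UMIs, and its log2 ratio of 5.02 between E13.5 and E11.5 has an interval of 3.14 to 8.09. Free RNA would give 1.94, 1.69 and 1.33 CPM of it, and subtraction at the haemoglobin share turns its log2 ratio between E12.5 and E11.5 to -0.60. At E12.5 against E11.5, 5 members were higher and 12 lower of 27, beside 4.87% and 7.13% of all genes, and at E13.5 against E12.5 0 were higher and 5 lower of 28, beside 3.96% and 5.98%. In the Xist-positive cells, 3 of the 17 calls of the first step and 4 of the 5 calls of the second were lost. Hoxd1 had the lowest log2 ratio between E13.5 and E11.5, -4.53, with 10.7, 1.53 and 0.464 CPM. The total lay below that of mesenchyme by log2 ratios of -1.04, -1.73 and -1.64. Myocyte-like cells held less than myogenic progenitor-like cells, with 296, 187 and 132 CPM against 572, 334 and 263 CPM. Within the progenitor-like cells alone the log2 ratio between E13.5 and E11.5 was -1.64 (-1.75 to -1.54) over groups 1 to 5 and 0.15 (-0.01 to 0.32) over groups 6 to 13.

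Hoxa11 was highest in the muscle class. Hoxa11, known from the limb and from forelimb muscle precursors, had 1.95 (1.01 to 3.41), 2.14 (1.33 to 3.28) and 1.95 (1.21 to 2.98) CPM in muscle. In mesenchyme it had 0.232, 0.126 and 0.0582 CPM. It was the member at least 2-fold higher in muscle than in mesenchyme at all 3 stages, and Hoxd8 was the other one at E11.5. That makes 2 of 32 members at E11.5, 1 of 33 at E12.5 and 1 of 34 at E13.5, beside 6.95%, 6.27% and 6.64% of all genes. At least 2-fold lower in muscle were 16, 24 and 24 members, beside 17.3%, 33.1% and 34.3%. The antisense partner of Hoxa11, Hoxa11os, had 3.62 CPM in muscle at E13.5 and 1.63 CPM at E11.5. Whether the counting used strand is not stated. Hoxa10 had 8.13, 16.4 and 12.3 CPM in muscle and 6.04, 13.3 and 13.7 CPM in mesenchyme.

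**Figure D3:**
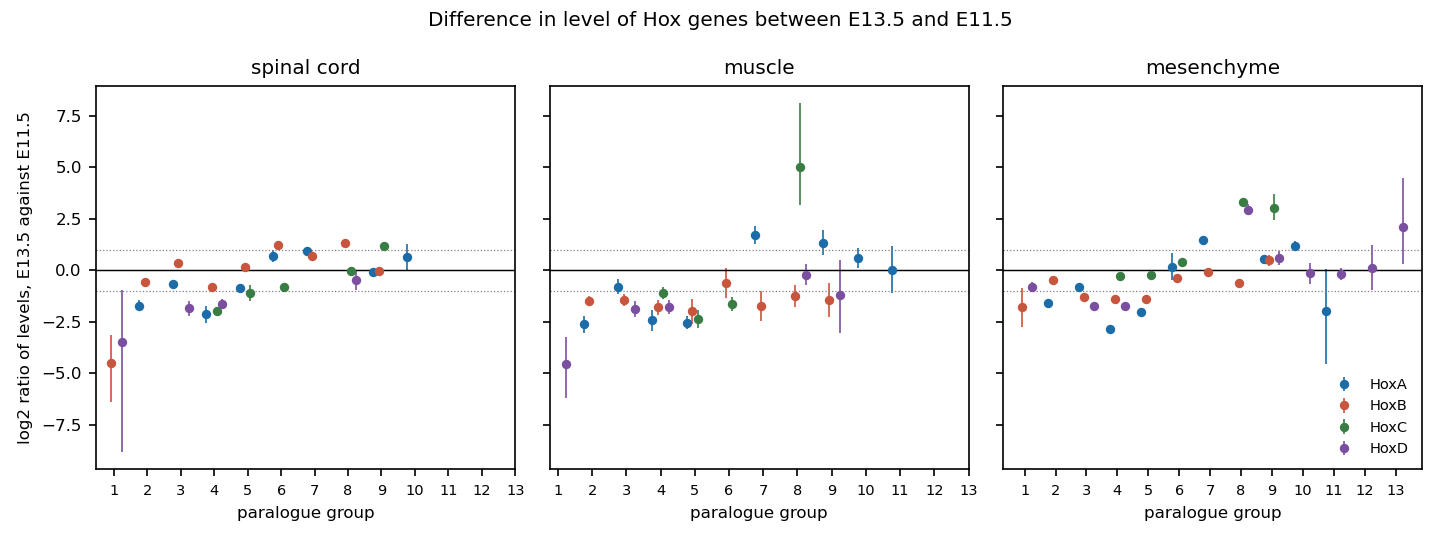
Log2 ratio of levels between E13.5 and E11.5 for Hox genes with at least 10 UMIs in both stages together and at least 1 in each (points, coloured by complex, with exact 95% intervals), by paralogue group, in 3 cell classes. Dotted lines mark 2-fold. Groups 1 to 5 lie mostly below 0 in all panels; the highest point, Hoxc8 in muscle, rests on 2 UMIs at E11.5.

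In the spinal cord the stages differed in the same sense along the groups, with a total of 5633 CPM at E13.5 against 4907 CPM at E11.5. Between E13.5 and E11.5, 3 of 27 members were at least 2-fold higher and 9 were at least 2-fold lower, beside 15.7% and 14.5% of all genes. All 9 lower members were of groups 1 to 5, led by Hoxb1 with 26.3, 5.81 and 1.16 CPM in order of stage. In progenitors alone Hoxb1 had 10.2, 0.881 and 1.78 CPM on 167, 4 and 1 UMIs, so its direction turns there between E12.5 and E13.5. Hoxc4, with 248, 150.5 and 63.3 CPM, and Hoxd4, with 146, 87.2 and 47.3 CPM, were among them. The 3 higher ones were Hoxb8, Hoxb6 (243, 348 and 576 CPM) and Hoxc9 (33.7, 126 and 76.6 CPM). Hoxc8 and Hoxa9 were highest at E12.5, with 147, 364 and 146 CPM and with 84.4, 166 and 79.5 CPM. By adjacent stages, 3 members were higher and 4 lower of 27 at E12.5 against E11.5, beside 13.4% and 8.0% of all genes, and 0 were higher and 7 lower of 26 at E13.5 against E12.5, beside 5.42% and 9.24%. In progenitors alone 4 of these 7 lower calls were lost. Groups 6 to 13 made 52.7, 69.1 and 73.8% of spinal cord Hox UMIs. These values are over the class, and the part of its changing share of progenitors was not tested.

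The shift along the groups was also seen inside cell clusters. Outside the blood classes, 17 cell clusters held at least 50 cells in both libraries of an adjacent pair of stages, giving 22 comparisons. In all 22 the share of groups 6 to 13 was higher at the later stage, by 1.91 to 19.4 percentage points. Groups 1 to 5 were lower at the later stage in 20 of the 22, and groups 6 to 13 were higher in 13. In the myogenic progenitor-like cluster the share was 17.6, 37.0 and 42.5% in order of stage, in the meningeal-like cluster 7.72, 20.7 and 27.8%, and in 1 neural progenitor-like cluster 48.7, 61.5 and 66.8%. With the erythroid- and macrophage-like clusters added, 24 of 25 comparisons ran this way, the exception being an erythroid-like cluster at E12.5 against E11.5. All 22 comparisons draw on the same 3 libraries, and an exact level of the cut that differed between litters cannot be told apart from stage.

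**Figure D4:**
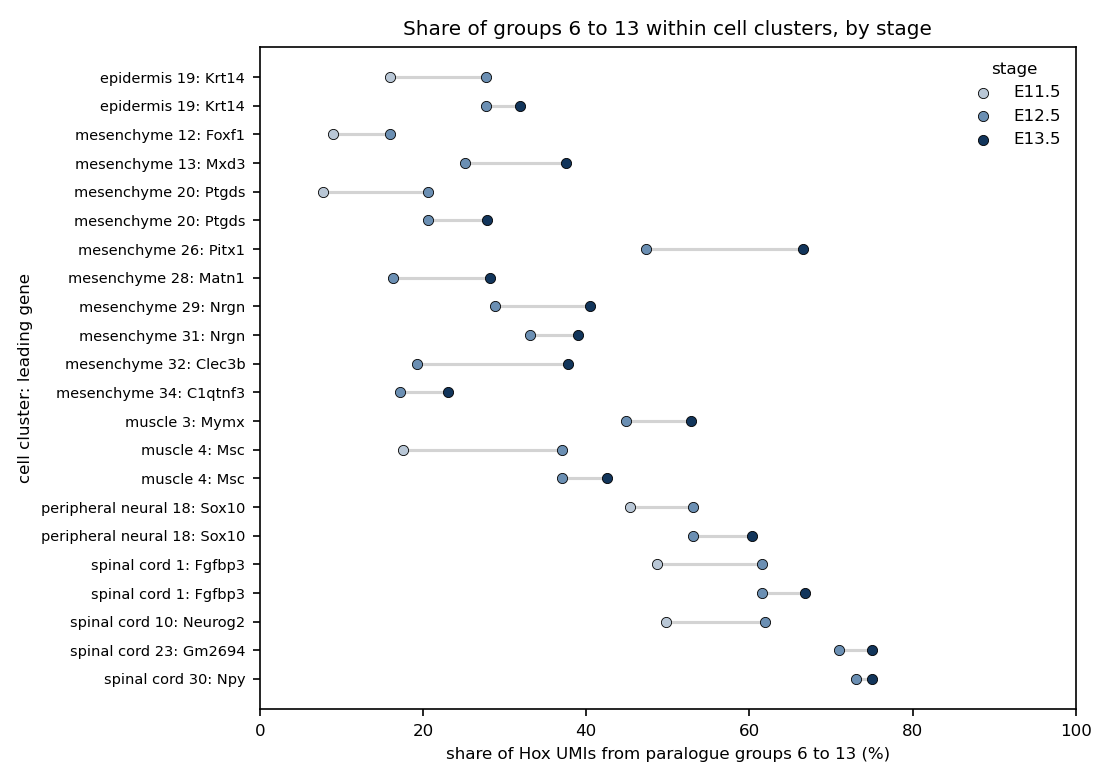
Share of Hox UMIs from paralogue groups 6 to 13 within single cell clusters (rows, with class, number and leading gene), for each adjacent pair of stages with at least 50 cells in both. The later stage lies to the right of the earlier one in all 22 rows, for example at 42.5% against 37.0% in the muscle cluster led by Msc.

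Mesenchymal cell clusters of 1 library differed in which complex they used. At E13.5 the HoxA complex made 6.52, 6.82 and 11.2% of Hox UMIs in the clusters led by Nrgn and Irx1 (dermal-like), by Nrgn and Sp5, and by Dpt and Cemip. In the same clusters HoxC made 45.3, 43.2 and 44.4%. The largest cluster, led by Clec3b and Cxcl13, had 36.4% HoxA and 24.05% HoxC, and the chondrogenic-like cluster had 31.9% and 22.1%. Hoxa5 shows the contrast best, with 4.69, 5.76 and 5.33 CPM in the first 3 clusters, against 60.1 CPM in the Clec3b cluster and 78.2 CPM in chondrogenic-like cells. Hoxd8 had the reverse order, with 77.2, 72.6 and 39.8 CPM against 5.76 and 9.56 CPM. Totals differed less, from 500.4 CPM in the meningeal-like cluster to 1074 CPM in the cluster led by Pitx1. At E12.5 the dermal-like cluster likewise had 8.82% HoxA and 49.98% HoxC, and the Clec3b cluster 43.0% and 10.8%.

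**Figure D5:**
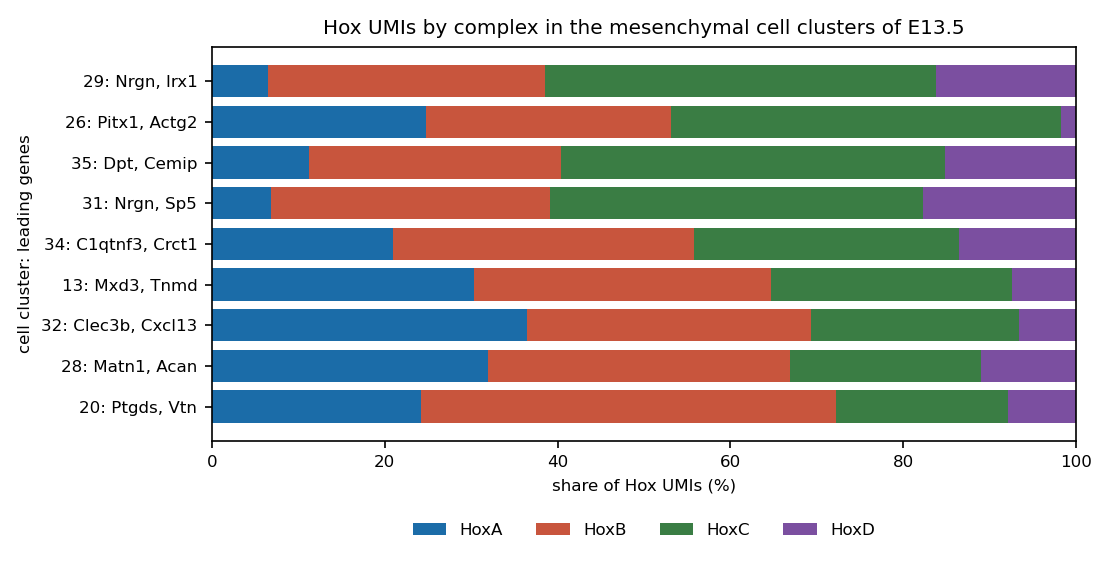
Share of Hox UMIs from each complex (bars, %) in the mesenchymal cell clusters of E13.5, ordered by the HoxC share, with cluster numbers and leading genes. The clusters led by Nrgn have the narrowest HoxA segments, 6.52 and 6.82%, and the cluster led by Clec3b the widest, 36.4%.

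Single mesenchymal clusters stood out for posterior members. The cluster led by Pitx1 and Actg2 had 66.6% of its Hox UMIs in groups 6 to 13 at E13.5 and 47.4% at E12.5, the highest shares among mesenchymal clusters of either library. Hoxc8 had 208 CPM in it at E13.5, Hoxa7 132 CPM, Hoxb9 52.0 CPM and Hoxc9 33.3 CPM. Hoxd11, Hoxd12 and Hoxd13, genes of the limb and the tail end, were low throughout, and Hoxd11 was highest at 27.1 CPM in the E12.5 cluster led by AA467197 and Srd5a2. At the other end, the meningeal-like and sclerotome-like clusters of E11.5 had 7.72% and 8.94% in groups 6 to 13. In the sclerotome-like cells, precursors of the vertebrae, Hoxa7 had 3.46 CPM, Hoxa9 0.516 CPM and Hoxa5 180 CPM.

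Single members stood out in the small classes. Hoxc13, which in the mouse is needed for hair and nails, had 8.89 (4.74 to 15.2), 10.9 (6.23 to 17.7) and 9.54 (6.99 to 12.7) CPM in the epidermis-like class. It had 2 UMIs in all mesenchymal cells and none in the spinal cord or muscle classes. In the endothelial-like class Hoxd8 had 16.2, 49.5 and 48.3 CPM and Hoxd9 had 2.56, 22.1 and 26.3 CPM, and the HoxD complex made 14.01, 31.7 and 38.2% of its Hox UMIs. That class held 55, 31 and 75 cells, so its middle value rests on the fewest cells. Hoxd8 was not particular to it, since the mesenchymal clusters led by Nrgn had more at E13.5. The HoxC complex made 4.28, 2.73 and 3.03% there.

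The last paralogue group seen in a cell was counted after thinning each cell to 4000 UMIs. In the spinal cord group 9 was the last in 71.5, 77.8 and 72.7% of cells, and a group from 10 to 13 in 1.22, 4.80 and 2.88%. In mesenchyme the last group was one from 1 to 4 in 35.7, 27.3 and 26.1% of cells, group 5 in 30.9, 22.3 and 13.8%, and group 8 in 7.76, 10.8 and 18.1%. In muscle 23.5, 40.3 and 48.4% of cells had no Hox UMI. Among erythroid-like cells 80.6, 85.5 and 78.9% had none, given for comparison. A UMI of group 8 or later was in 15.3, 24.4 and 33.5% of mesenchymal cells after thinning and in 30.1, 41.3 and 52.2% without it.

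In mesenchyme, most other members of groups 6 to 13 were higher in cells that held a Hoxc8 or Hoxc9 transcript. Thinned mesenchymal cells with a Hoxc8 or Hoxc9 UMI numbered 41, 215 and 628 in order of stage, against 2445, 2882 and 4097 without. Among the other members with enough UMIs, those of groups 6 to 13 had median log2 ratios of 1.80, 1.14 and 1.05 between cells with and without, and those of groups 1 to 5 had -0.75, -0.72 and -0.32. At E13.5 Hoxa7 had 157 CPM in cells with such a UMI and 27.5 CPM in cells without, Hoxb9 25.5 against 4.82 CPM, and Hoxc6 143 against 46.1 CPM. Hoxa2 ran the other way, with 11.1 CPM against 26.1 CPM. In the spinal cord the medians were 1.06, 0.44 and 0.56 over groups 6 to 13, where 6 of 10 were higher and 4 lower at E12.5, and -0.18, -0.50 and -0.42 over groups 1 to 5. In muscle, where E12.5 gave 20 such cells and E13.5 gave 31, groups 6 to 13 had medians of 1.61 and 0.84. Unlike in mesenchyme, groups 1 to 5 had positive medians there as well, 0.84 (8 higher and 2 lower) and 0.55 (6 higher and 4 lower). The tissue spans several segments and cell clusters, and their parts in these ratios were not tested.

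Partners and regulators of Hox proteins were described from lists. Between E13.5 and E11.5, 7.65% of all genes were at least 2-fold lower in mesenchyme, 11.8% in muscle and 14.5% in the spinal cord, and 17.2%, 6.44% and 15.7% were at least 2-fold higher. Of 9 genes for TALE homeodomain cofactors, which bind DNA together with HOX proteins, 5 were at least 2-fold lower in mesenchyme at E13.5 than at E11.5 and 0 higher. In muscle 7 were lower and 0 higher, and in the spinal cord 4 were lower and 2 higher. Meis2 had 36.7 CPM in muscle at E13.5 and 188 CPM at E11.5. Of 20 Polycomb and Trithorax genes, which keep Hox genes silent or active, 1 was lower and 1 higher in mesenchyme. In muscle 2 of 19 were lower and 0 higher, and in the spinal cord 2 were lower and 3 higher. These shares were near or below those of all genes and rest on few genes. Of 13 regulators of Hox onset and axial level, 4 of 9 that could be compared were lower and 1 higher in mesenchyme, 4 of 7 and 0 in muscle, and 4 of 8 and 0 in the spinal cord. Of 8 flanking and ParaHox genes, 1 of 1 was lower in mesenchyme and 4 of 4 (Evx1, Evx2, Gsx1 and Gsx2) in the spinal cord. Gsx1 and Gsx2 were leading genes of progenitor-like clusters. The part of the changing share of progenitors in the spinal cord counts was not tested. Cdx2 and Cdx4, which start trunk Hox expression in the early embryo, had no UMI in mesenchyme, muscle or the spinal cord at E11.5 or E13.5. Aldh1a2, which makes retinoic acid, had 36.2 CPM in mesenchyme at E13.5 and 140.5 CPM at E11.5.

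Non-coding transcripts of the complexes mostly stood lower at E13.5 than at E11.5 in muscle and the spinal cord. Of 10 listed, 8 could be compared in mesenchyme and 3 were at least 2-fold lower and 1 higher, beside 7.65% and 17.2% of all genes. In muscle 6 of 8 were lower and 1 higher, beside 11.8% and 6.44%, and in the spinal cord 6 of 7 were lower and 0 higher, beside 14.5% and 15.7%. Hotairm1 had 20.9 CPM in the spinal cord at E13.5 and 121 CPM at E11.5, and 6.77 CPM in mesenchyme against 29.7 CPM. Hoxb5os had 91.4 CPM in the spinal cord at E13.5 and 219 CPM at E11.5, beside Hoxb5 with 236 and 211 CPM. Hotair and Hottip had no UMI in mesenchyme, muscle or the spinal cord at either stage.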

How the data were processed

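Single-cell 3′ RNA sequencing libraries (10x) of the trunk were deposited by the authors as raw UMI counts for all barcodes, aligned with Cell Ranger 8.0.1 to GRCm39 per the submitters' processing notes. The annotation release and the use of strand are not given in the sources used here. Barcodes with at least 4000 UMIs, 500 genes and at most 10% mitochondrial UMIs were kept. Doublets were called with Scrublet in scanpy 1.11.5 (164, 125 and 171 barcodes, or 2.60, 2.04 and 2.40%) and removed, as was a cell cluster with over 50% doublets. Leiden clusters (igraph 0.11.9, 3000 variable genes, 40 components, 15 neighbours, resolution 1) were computed without Hox, mitochondrial, ribosomal protein, haemoglobin, Xist and Y-linked genes. A cluster was named from at least 3 markers that were 2-fold higher in it and found in 5% of its cells. Unnamed clusters with Pdgfra in 30% of cells were counted as mesenchyme.

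UMIs were summed per class and library and given as CPM with exact 95% Poisson intervals. Ratios have exact conditional binomial intervals (SciPy 1.17.1), and shares of cells exact Clopper-Pearson intervals. With 1 library per stage there was no test and no p-value; a call is a ratio of at least 2-fold with at least 10 UMIs in both groups together. All genes of the table went through the same call, and the share called stands beside the members. Free RNA was taken from droplets of 50 to 500 UMIs. A level set against 0 UMIs uses a floor of 3 UMIs in the group. Genes named in the text come from the 39 members and, past 2-fold, from 5 lists of related genes; a few of these genes are not reported here singly, but counts and sums include them. Members and lists were chosen with earlier results of these data known. The scripts were tested on simulated data. Alternatives were stricter depth, mitochondrial and UMI limits, doublets kept, another resolution, means over cells, other denominators, subtraction of free RNA and left-out clusters; the class naming rules were set after the clusters were seen.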

Additional observations from a re-analysis of the deposited data

Results flagged for a closer look

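Over the whole classes, Hoxb8 differed in direction between the spinal cord and muscle. Between E13.5 and E11.5 its log2 ratio was 1.34 (1.30 to 1.38) in the spinal cord and -1.23 (-1.77 to -0.70) in muscle. It was singled out because the single library of each stage moved one way in one class and the opposite way in the other; the difference itself was not tested. The muscle level, 4.92 CPM at E13.5 and 11.55 CPM at E11.5, compares with 5.22 and 6.79 CPM that free RNA would give at those stages. The haemoglobin shares would give more, so the muscle levels are near background. The spinal cord ratio is over a class whose share of progenitors differed with stage, and the part of that mix was not tested.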

How the results depend on the processing

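No paired analysis was possible because each stage is 1 library and no replicates exist. With 1 library per group, no value has a check on variation between litters, and intervals cover counting error only. The log2 ratio of total Hox levels between spinal cord and mesenchyme was above 0 under every alternative run. At E11.5 (2.22) it was 2.17 with doublets kept, 2.19 at resolution 2, 2.28 as a mean over cells, 2.14 without haemoglobin, mitochondrial and ribosomal protein UMIs, 2.27 with free RNA subtracted and 2.32 at the haemoglobin share. It was 2.25 in Xist-positive cells free of Y transcripts, 2.33 without sclerotome and chondrogenic clusters, 2.10 without unnamed mesenchyme, 1.82 for progenitors and 2.71 for neurons. At E12.5 (2.69) those settings that moved it gave 2.72 at 5% mitochondrial UMIs, 2.66 with doublets, 2.74 as a mean over cells, 2.57 without those UMIs, 2.72 and 2.89 with free RNA subtracted at the lower and the haemoglobin share, 2.73 without sclerotome and chondrogenic clusters, 1.76 for progenitors and 2.93 for neurons. At E13.5 (3.04) they gave 2.95 at 6000 UMIs, 3.09 at 5% mitochondrial UMIs, 2.94 without those UMIs, 3.09 and 3.36 with free RNA subtracted, 1.70 for progenitors and 3.20 for neurons.

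Between E12.5 and E11.5 in mesenchyme (-0.15) the ratio was -0.19 at the haemoglobin share, -0.079 in Xist-positive cells, -0.078 without sclerotome and chondrogenic clusters and -0.27 without unnamed mesenchyme. Between E13.5 and E12.5 (-0.47) it was -0.51 at 5% mitochondrial UMIs, -0.39 at the haemoglobin share, -0.54 in Xist-positive cells and -0.44 without sclerotome and chondrogenic clusters. In muscle, E12.5 against E11.5 (-0.84) gave -0.93 at 6000 UMIs, -0.98 at resolution 2, -0.60 as a mean over cells, -0.77 without those UMIs, -1.25 at the haemoglobin share and -1.12 in Xist-positive cells. E13.5 against E12.5 (-0.38) gave -0.30, -0.28, -0.63, -0.57 at the haemoglobin share and -0.12 in Xist-positive cells, the first 3 under those same settings.

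In the spinal cord, E12.5 against E11.5 (0.32) was 0.37 at 5% mitochondrial UMIs, 0.34 with doublets, 0.28 without those UMIs, 0.31 and 0.38 with free RNA subtracted, 0.35 in Xist-positive cells and 0.071 in neurons, and it changed sign to -0.21 in progenitors. E13.5 against E12.5 (-0.12) was -0.22 at 6000 UMIs, -0.092 without those UMIs, -0.10 with free RNA subtracted, -0.18 in Xist-positive cells, -0.53 in progenitors and -0.20 in neurons, and changed sign to 0.079 at the haemoglobin share. Single members reversed as well: Hoxd1 in spinal cord against mesenchyme at E11.5 was 0.40 without sclerotome and chondrogenic clusters against -1.34 with them, and Hoxc8 in muscle, E12.5 against E11.5, was -0.60 at the haemoglobin share against 4.23. In all, 11 calls of single members reversed. In Xist-positive cells they were Hoxd12 and Hoxd13 in spinal cord against mesenchyme at E12.5, Hoxd12 in mesenchyme at both steps and Hoxd9 in muscle at E13.5 against E12.5. At the haemoglobin share they were also Hoxc9 in mesenchyme at E12.5 against E11.5 and Hoxb9 in muscle at E13.5 against E12.5. The others were Hoxd9 in spinal cord against mesenchyme at E11.5 without unnamed mesenchyme, and Hoxb1 in the spinal cord at E13.5 against E12.5, 1.02 in progenitors against -2.32. Counts of members past 2-fold moved by over 1.5 times in 25 of 238 alternatives. In spinal cord against mesenchyme at E11.5, 3 members were lower without unnamed mesenchyme, against 5. In mesenchyme at E12.5 against E11.5 (7 higher, 2 lower), 5 were lower at the haemoglobin share, 4 higher without sclerotome and chondrogenic clusters, 12 higher and 6 lower without unnamed mesenchyme, and 3 higher and 5 lower in Xist-positive cells. At E13.5 against E12.5 (3 higher, 5 lower), 6 were higher at 1 UMI and 8 lower at 5% mitochondrial UMIs, and 8 were higher and 8 lower in Xist-positive cells. In muscle at E12.5 against E11.5, 6 were lower as a mean over cells, against 12, and 3 higher in Xist-positive cells, against 5. At E13.5 against E12.5 (0 higher, 5 lower), 1 was higher at 1 UMI, 2 were lower at 30 UMIs, 12 were lower as a mean over cells, and 1 and 2 were higher and 8 and 9 lower with free RNA subtracted at the lower and the haemoglobin share, and 5 were higher and 2 lower in Xist-positive cells. In the spinal cord at E13.5 against E12.5 (0 higher), 3 were higher at 1 UMI and 1 in progenitors, and at E12.5 against E11.5 (3 higher) 5 were higher in Xist-positive cells. The share of cells with group 8 or later moved without thinning in 8 of 9 cases. The causes were not tested.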
